A study of Mus musculus with 12 samples.

Results

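The genes described here are those of the kinesin family: every gene symbol that begins with Kif followed by a digit or the letter c, together with the kinesin light chain genes Klc1, Klc2, Klc3 and Klc4. This rule used names alone and no measured value. It found 46 of the 24015 rows of the table, of which 45 are motor or light chain genes and 1, Kif4-ps, is a pseudogene. The filter on low counts, 10 or more counts in 3 or more libraries, left 39 members, which were tested. The other 7 were Kif12, Kif18a, Kif18b, Kif2b, Kif2c, Kif4 and Kif4-ps, whose highest count in any library was 22, and Kif2b was at 0 in every library. The detection filter took no account of group.

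The RNA came from sorted nuclei of mouse hippocampus, sequenced as 12 libraries of 4 groups named Basal, Early, Late and Reactivated, with 3 libraries each. All the mice were ArcCreERT2 x R26R-STOP-floxed-eYFP animals with the genotype field +/+: the Arc gene drives a tamoxifen-dependent Cre recombinase, and Cre switches on a yellow fluorescent reporter. All received 4-hydroxytamoxifen 1 h before contextual fear conditioning and were held in the dark for 24 h before it. The protocol also states 48 h in the dark after conditioning. Brains were collected 1.5 to 2 h after conditioning or 5 days after it, and part of the later cohort was exposed again to the conditioning cue. The treatment field gives all 12 libraries the same foot shock, no recall and collection at day 0, so each library was placed in its group by its title only. No label says which combination of the NeuN, Arc and GFP antibodies was sorted for a title, or at which time the Basal nuclei were taken, and the age of the mice is not given in the sources used here. A replicate was a pool, with 10 to 12 mice and 10000 nuclei stated per condition, and the material was fixed with 1% paraformaldehyde before sorting.

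Kinesins are motors that hydrolyse ATP to walk along microtubules, most of them toward the plus end, which in an axon points away from the cell body. In neurons they carry vesicle precursors, mitochondria, receptors and RNA granules into axons and dendrites, and light chains and adaptor proteins tell a motor which cargo to hold. Other members build the mitotic spindle, move cargo in cilia or take microtubules apart at their ends. RNA from nuclei reports transcripts that have not left the nucleus as well as those being made, so the values below are nuclear RNA levels and not protein.

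Total counts ran from 4838166 to 11120255 per library. Rn45s, the ribosomal RNA precursor, took 4.72 to 12.2% of the counts of the Basal libraries, 6.23 to 12.9% of Early, 27.9 to 36.5% of Late and 18.8 to 27.7% of Reactivated ones. Arc, the gene that drives the Cre, averaged 145 ± 40.7 normalized counts in Basal libraries, against 435 ± 110.2 for Early, 593 ± 48.0 for Late and 659.6 ± 141 for Reactivated (SD, n = 3). The nuclei also differed by group in markers of hippocampal cell types. The summed level of 10 dentate granule cell markers was 10516 to 15419.7 normalized counts per Basal library, 2916 to 3484 per Early, 3185 to 5007 per Late and 2132 to 4726 per Reactivated library. That of 10 markers of CA1 pyramidal cells was 949 to 1412, 2565 to 2871, 3731 to 4399 and 3942 to 4768 in these groups in that order, and 8 oligodendrocyte markers summed to 1896 to 2421, 1644 to 2058, 4726 to 9953 and 2852 to 7529. Of the 7 oligodendrocyte markers tested, 3 were called higher and 4 lower in Late than in Basal (median log2 fold change -0.99), and 4 higher and 1 lower in Reactivated (0.95), so the sum does not stand for the list. Pan-neuronal markers, 8 in all, summed to 12007 to 13234 normalized counts per Basal library, 15685 to 17604 per Early, 17099 to 17422 per Late and 20892 to 23990.2 per Reactivated library. None of these granule, CA1 and oligodendrocyte markers was at 0 in all libraries. In RNA from pooled nuclei, a change in the mix of nuclei and a change in RNA per nucleus cannot be told apart. The part of these measures in the results that follow was not tested except where a value is given.

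Relative to the bulk of genes, kinesin RNA was higher in the nuclei of the Late and Reactivated groups than in those of Basal and Early, chiefly through the members that carry cargo in neurons. Counts were divided by library size after TMM scaling to give normalized counts, and genes were called by edgeR's quasi-likelihood test at a Benjamini-Hochberg adjusted p under 0.05 over 15668 genes. Between Late and Basal, 27 of the 39 tested members changed, 21 higher and 6 lower, where 49.1% of all genes were called, 25.4% higher and 23.7% lower. Reactivated differed from Basal in 27 members, 22 higher and 5 lower, against 39.4% of all genes, 20.6% higher and 18.8% lower. Late differed from Early in 24 members, 19 higher and 5 lower, with a background of 42.3%, 22% higher and 20.3% lower. Reactivated differed from Early in 18 members, 14 higher and 4 lower, with a background of 26.2%, 13.5% higher and 12.7% lower. Only 2 members were called between Early and Basal, 1 higher and 1 lower, with a background of 6.03%, 3.36% higher and 2.66% lower, and 5 between Reactivated and Late, with a background of 22.6%. With the replicate number as a block in Basal and Early only, 8 members were called between these groups, 7 higher and 1 lower in Early, with 8.55% of all genes. That block was added after seeing the data, and a pairing of libraries by number is not established. These comparisons share libraries and are not independent of each other. The joint test over the 4 groups called 31 of 39 members and 58.6% of all genes.

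Counted by role, the transport motors held most of the rises. Of 21 tested members whose main known role is transport in neurons or other cells, 18 rose from Basal to Late and 0 fell, and the 3 without a call were Kif5b, Kif1b and Klc3. From Basal to Reactivated, 18 of these 21 again rose and 0 fell, the 3 without a call being Kif5b, Kif17 and Klc3. Of 9 tested members of the mitotic spindle and cytokinesis, 4 fell from Basal to Late and 1 rose, and 2 fell and 1 rose from Basal to Reactivated. Of all genes, 23.7% fell and 25.4% rose to Late, and 18.8% fell and 20.6% rose to Reactivated. The fall of 2 of 9 to Reactivated lay near the share of all genes. The median log2 fold change of the 39 members was 0.73 from Basal to Late and 0.63 from Basal to Reactivated, beside -0.03 and 0.02 for all genes tested. The pan-neuronal markers had medians of 0.56 and 1.08 in these comparisons, with 5 and 6 of 8 called higher and 0 lower, and 6 markers of excitatory neurons had 1.19 and 0.72, with 4 higher and 1 lower in each. Their part in the higher kinesin levels was not tested. The median of the 39 members was 0.16 from Basal to Early, beside 0.01, and -0.03 from Late to Reactivated, beside 0.03. With libraries scaled to the same total only, the median of all genes moved to -0.87 from Basal to Late and the members' calls became 8 higher and 13 lower, so directions here are relative to the bulk of genes. Of all 15668 genes, 1401 were called higher and 9069 lower with that scaling. With the log2 share of Rn45s of each library as a covariate, 1 member was called between Late and Basal and 3 between Reactivated and Basal, while the share of all genes called was 7.6% and 5.55%.

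**Figure D1:**
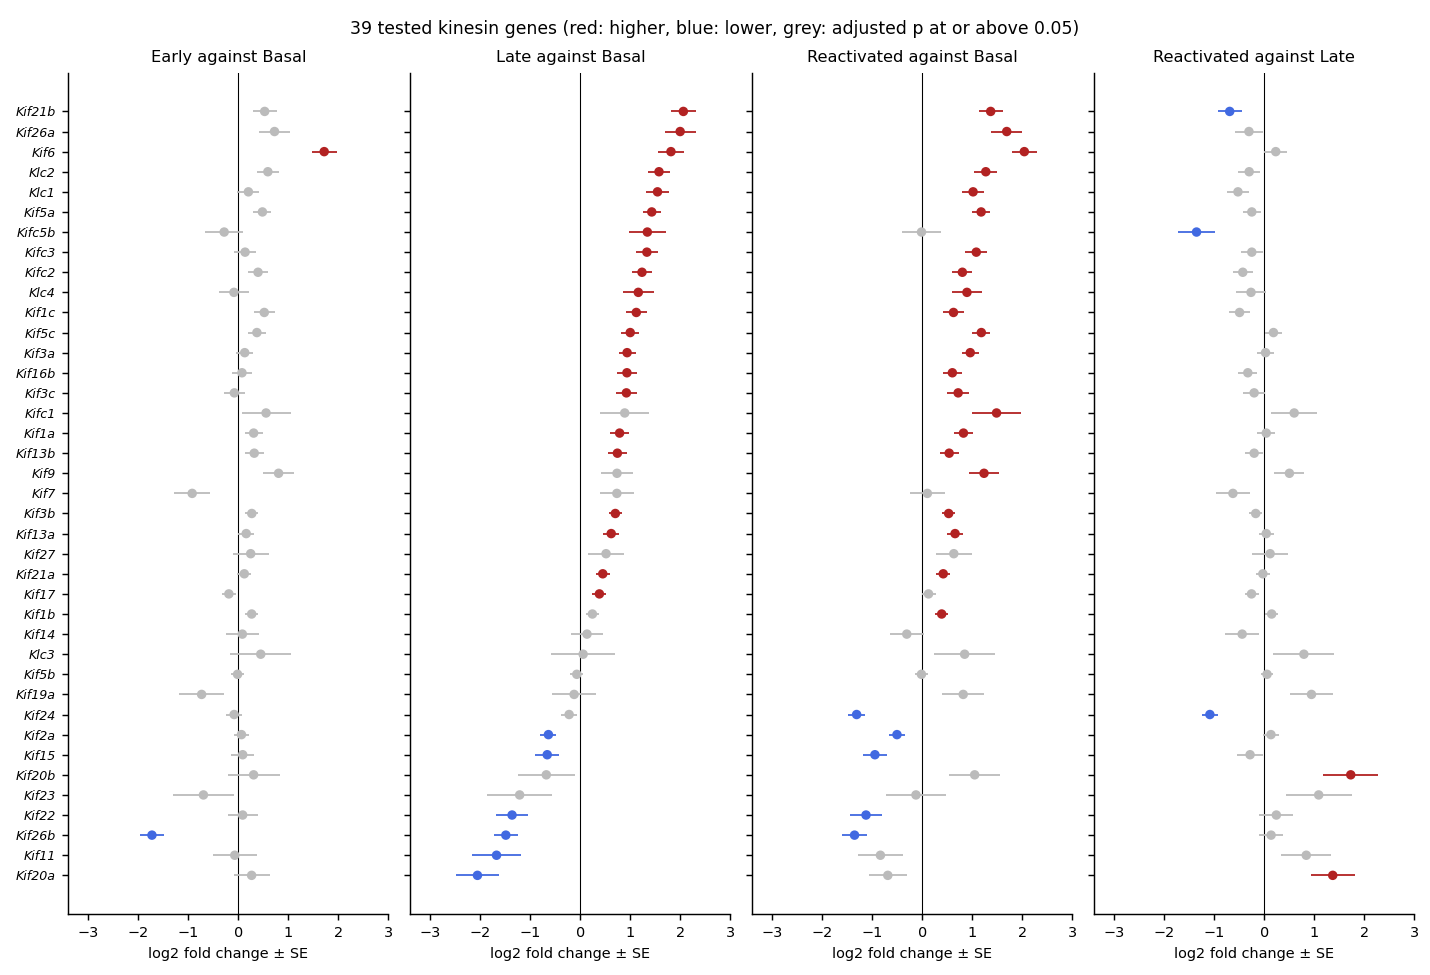
Log2 fold change ± SE (horizontal axis) of the 39 tested kinesin genes (rows) in 4 of the 6 comparisons, coloured by call at an adjusted p under 0.05. In the panel of Late against Basal 21 genes lie to the right as higher and 6 to the left as lower, while the panel of Early against Basal has 1 of each, Kif6 and Kif26b.

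Per kilobase of annotated exon, the scale on which genes can be compared, Klc1 had the highest mean level in Basal nuclei at 851 normalized counts per kb. It was followed by Kifc2 at 679, Kif1a at 675, Kif3a at 472, Kif21a at 389, Kif5c at 299.8, Kif1b at 292, Kif5a at 278, Klc2 at 209.8 and Kif5b at 169. Kifc2 and Kif1a did not differ beyond their spread there, nor did Kif5c, Kif1b and Kif5a among themselves. In Late nuclei the first 3 kept their places, with Klc1 at 2481, Kifc2 at 1596 and Kif1a at 1163, whereas Kif5a at 747 normalized counts per kb stood above Kif5c at 599 and Kif21a at 531. Unspliced RNA of introns adds reads in nuclei, and whether it was counted is not given in the sources used here, so a level per kb is approximate.

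The kinesin-1 genes encode the conventional transport motor, a pair of heavy chains from Kif5a, Kif5b or Kif5c with a pair of light chains. Kif5a and Kif5c are the forms typical of neurons, and Kif5b is made in most tissues. Kif5a had 1867, 1508 and 2446 normalized counts in the Basal libraries, 2532, 2382 and 3209 in the Early ones, 5677, 5345 and 4634 in the Late ones and 4934, 4219 and 3997 in the Reactivated ones. Every Late and Reactivated library was above every Basal and Early library. Kif5a was 2.69-fold higher in Late than in Basal (log2 fold change 1.43 ± 0.18 SE, adjusted p = 2.2e-05) and 2.26-fold higher in Reactivated (1.17 ± 0.18, adjusted p = 0.0003). Kif5c had 1817, 1728 and 2619.9 normalized counts in the Basal libraries, 2661, 2128 and 3183 in the Early ones, 4441, 4156 and 3716 in the Late ones and 4729, 4884 and 4355 in the Reactivated ones. It was 2.00-fold higher in Late than in Basal (1.00 ± 0.18, adjusted p = 0.00038) and 2.26-fold higher in Reactivated (1.18 ± 0.18, adjusted p = 0.00029).

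Kif5b did not follow its 2 relatives. Its levels were 989.7, 1020.2 and 1053 normalized counts in the Basal libraries, 1017, 891 and 1121 in the Early ones, 992, 1008 and 915 in the Late ones and 939, 995 and 1089 in the Reactivated ones, and all 4 groups overlapped. Its log2 fold changes ran from -0.07 to 0.05 over the 6 comparisons, each with an SE of 0.13, and none was called. These values are not corrected for GC content, which was 41.1% for Kif5b, 53.8% for Kif5a and 47.5% for Kif5c. Under scaling to the same total only, Kif5b was called lower in Late than in Basal (log2 fold change -0.92, adjusted p = 5.4e-05) and lower in Reactivated (-0.50, adjusted p = 0.0106), while Kif5a stayed called higher in both (0.59 and 0.70).

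The light chains bind cargo and the tails of the heavy chains. Klc1 had 2364, 2214 and 3379.8 normalized counts in the Basal libraries, 2584, 2460.2 and 4099.9 in the Early ones, 8835, 8548 and 5806 in the Late ones and 5236, 5664 and 5177 in the Reactivated ones. Every library of the last 2 groups was above all of the first 2, and Late stood above Reactivated. Klc1 was 2.91-fold higher in Late than in Basal (1.54 ± 0.22, adjusted p = 6.7e-05) and 2.02-fold higher in Reactivated (1.01 ± 0.22, adjusted p = 0.0028), and its difference between Reactivated and Late did not pass the test (-0.53 ± 0.22, adjusted p = 0.0993). Klc2 had 578, 503 and 937 normalized counts in the Basal libraries, 833, 868 and 1342 in the Early ones, 2046, 2157 and 1813 in the Late ones and 1449.7, 1695 and 1727 in the Reactivated ones. It rose 2.97-fold from Basal to Late (1.57 ± 0.23, adjusted p = 6.8e-05) and 2.41-fold from Basal to Reactivated (1.27 ± 0.23, adjusted p = 0.0008). Klc4 was lower in level, with 196 ± 114 normalized counts in Basal and 444 ± 85.8 in Late (SD, n = 3), and rose 2.23-fold (adjusted p = 0.00614). Klc3 stayed at a mean of 4.93 to 8.85 normalized counts and was not called in any comparison. Klc2 overlaps an annotated gene of the opposite strand, as do Kif5b, Kif2a, Kif3c, Kif6, Kif7, Kif26b, Kif27, Kif20a, Kifc2, Kifc3 and Klc3, and the strand setting of the counting is not given in the sources used here, so reads of such partners may be included.

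The windows upstream of Kif5c and Klc1 are shown because both hold the full cAMP response element, the palindrome TGACGTCA to which the CREB protein of activity-dependent transcription binds. They come from RefSeq on GRCm38.p6, are written 5′ to 3′ on the strand of the gene and leave out annotated exon. Capitals mark that element and the GC box GGGCGG, the letters bound by Sp1, on either strand. Of the 30 tested members with a window 3 hold the element, and the third, Kif17, is not shown. Whether the element bears on the levels was not tested.
Kif5c, chr2:49619036-49619285, plus strand: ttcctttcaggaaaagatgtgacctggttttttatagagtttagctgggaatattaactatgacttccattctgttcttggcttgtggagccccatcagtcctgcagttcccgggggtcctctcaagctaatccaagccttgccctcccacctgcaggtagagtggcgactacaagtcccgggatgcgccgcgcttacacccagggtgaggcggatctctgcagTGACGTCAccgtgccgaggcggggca
Klc1, chr12:111758618-111758848, plus strand: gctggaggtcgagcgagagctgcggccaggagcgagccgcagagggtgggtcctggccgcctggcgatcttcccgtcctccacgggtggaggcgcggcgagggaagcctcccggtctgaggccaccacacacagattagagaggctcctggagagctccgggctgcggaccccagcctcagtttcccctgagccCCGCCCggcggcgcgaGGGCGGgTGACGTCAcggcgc

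**Figure D2:**
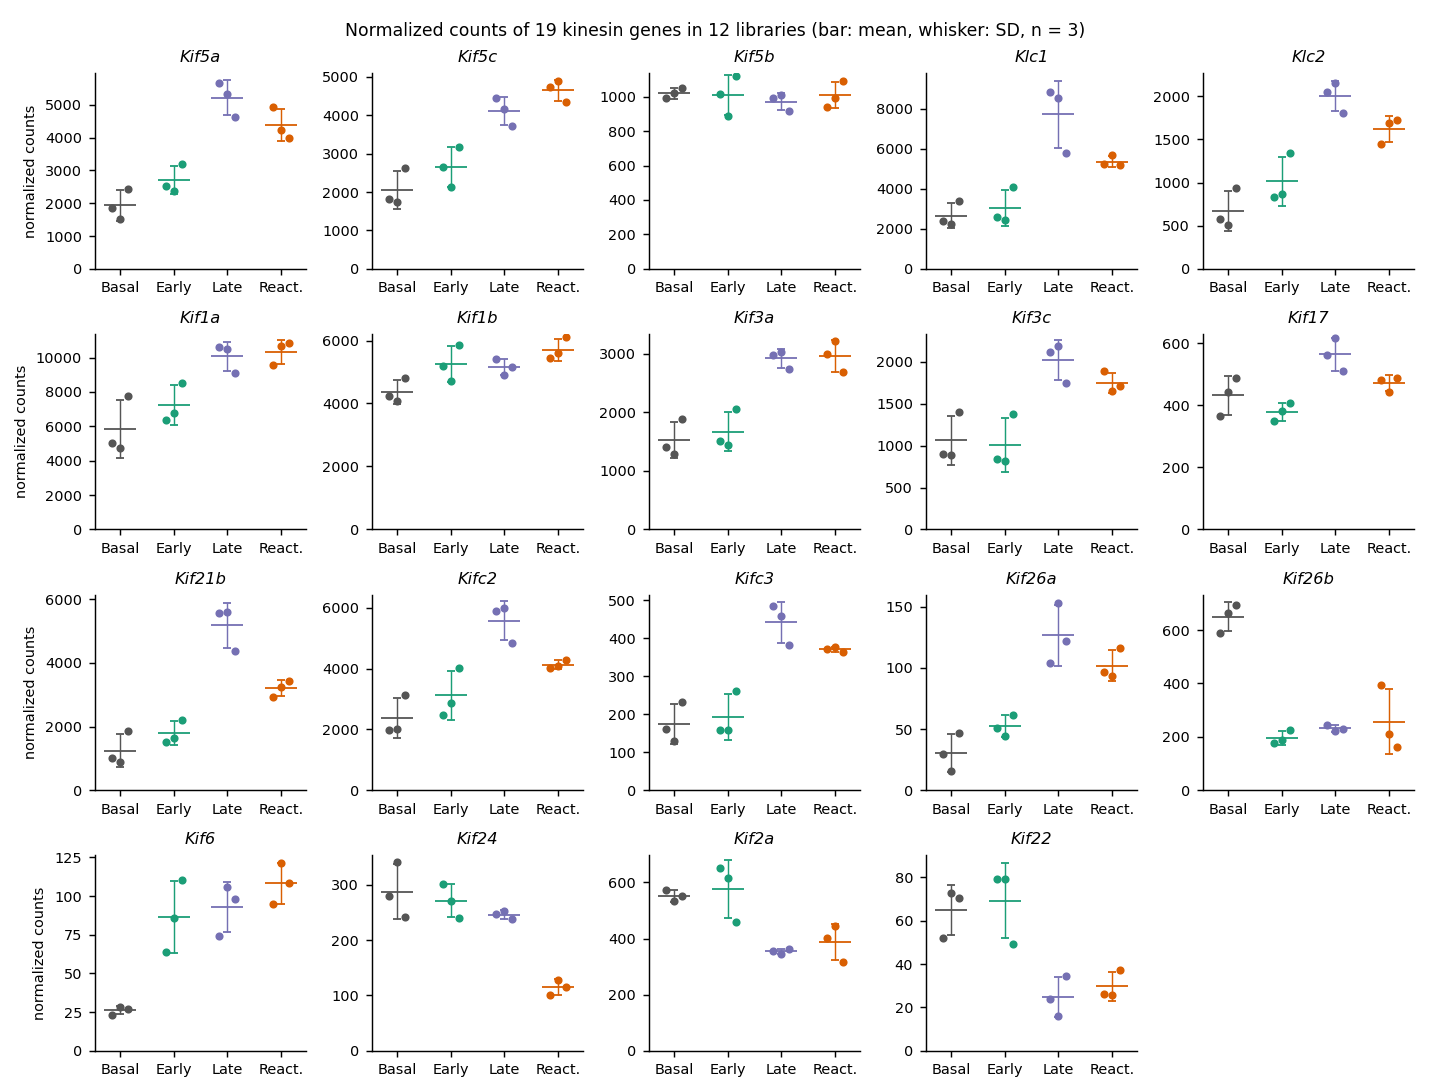
Normalized counts (vertical axes, starting at 0) of 19 kinesin genes in the 3 libraries of each group, with the mean as a bar and the SD as whiskers. Kif5a, Kif5c, Klc1 and Klc2 stand higher in Late and Reactivated, Kif5b lies between 891 and 1121 in all libraries, Kif26b is high only in the Basal libraries and Kif24 is low only in the Reactivated ones.

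Kinesin-2 motors carry cargo in dendrites, axons and cilia. Kif3a pairs with Kif3b or Kif3c, and Kif17 works as a pair of its own and is known for carrying NMDA receptor subunits in dendrites. Kif3a had 1404, 1294 and 1880.1 normalized counts in the Basal libraries, 1501, 1449 and 2050.4 in the Early ones, 2985, 3036 and 2731 in the Late ones and 2993, 3221 and 2682 in the Reactivated ones. It was 1.91-fold higher in Late than in Basal (0.93 ± 0.17, adjusted p = 0.00042) and 1.94-fold higher in Reactivated (0.96 ± 0.17, adjusted p = 0.00078), with no overlap between the groups in either comparison. Kif3c had 902, 887 and 1403 normalized counts in the Basal libraries, 835, 811 and 1375 in the Early ones, 2122, 2182 and 1743 in the Late ones and 1885, 1654 and 1709.5 in the Reactivated ones. Here too both later groups lay above the 2 others, 1.89-fold in Late (0.92 ± 0.22, adjusted p = 0.00285) and 1.64-fold in Reactivated (0.72 ± 0.22, adjusted p = 0.0173) against Basal. Kif3b rose 1.62-fold from Basal to Late (adjusted p = 0.00067) and 1.44-fold from Basal to Reactivated (adjusted p = 0.00728).

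Kif17 had the smallest log2 fold change of the 4 kinesin-2 genes against Basal, in Late and in Reactivated. It had 365, 443 and 488 normalized counts in the Basal libraries, 349, 382 and 407 in the Early ones, 563, 617 and 512 in the Late ones and 483, 443 and 488 in the Reactivated ones. Late lay above Basal in all libraries (0.38 ± 0.14, adjusted p = 0.0359) and above Early (0.57 ± 0.14, adjusted p = 0.00481), while Reactivated overlapped Basal (0.12 ± 0.14, adjusted p = 0.511). The call against Basal was lost or reversed in 12 of 26 alternative settings, and its log2 fold change was -0.29 after correction for GC content and -0.46 with libraries scaled to the same total only.

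Kinesin-3 motors move synaptic vesicle precursors and dense core vesicles over long distances. Kif1a, the main such motor of axons, had 5040.4, 4723 and 7793 normalized counts in the Basal libraries, 6378, 6766 and 8545 in the Early ones, 10642, 10485 and 9107 in the Late ones and 9549, 10659 and 10823 in the Reactivated ones. Basal 3 was the highest Basal library and lay closer to the Early libraries than to the 2 other Basal ones. Kif1a was 1.72-fold higher in Late (0.78 ± 0.18, adjusted p = 0.00267) and 1.77-fold higher in Reactivated than in Basal (0.82 ± 0.18, adjusted p = 0.0032). Kif1b, whose products carry mitochondria and vesicles, had 4245, 4071 and 4796 normalized counts in the Basal libraries, 5177, 4729 and 5850.5 in the Early ones, 5419.7, 4908 and 5158 in the Late ones and 5438, 5591 and 6105 in the Reactivated ones. Its groups lay within a narrow range, and of the 6 comparisons 1 was called, Reactivated against Basal (0.39 ± 0.13, adjusted p = 0.0267). That call was lost or reversed in 8 of 26 alternative settings, among them those without Basal 1, Basal 2 or Reactivated 3. Kif1c rose 2.17-fold from Basal to Late (adjusted p = 0.00062) and 1.54-fold to Reactivated (adjusted p = 0.0311). Kif13a, Kif13b and Kif16b, which move endosomes and receptors, rose by 0.62 to 0.93 on the log2 scale in Late and by 0.54 to 0.65 in Reactivated against Basal. Kif14, a cytokinesis motor of the same class, was not called, with 70.8 ± 25.1 normalized counts in Basal and 57.1 ± 25.1 in Reactivated (SD, n = 3).

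Among kinesin-4 genes, both Kif21b and its close relative Kif21a rose from Basal to Late. Kif21b, a motor of dendrites that also limits microtubule growth, had 997, 879.9 and 1849 normalized counts in the Basal libraries, 1499.9, 1655 and 2217 in the Early ones, 5583, 5608 and 4367 in the Late ones and 2945, 3234 and 3441 in the Reactivated ones. The 4 groups were ordered with Late highest, and Reactivated lay between Late and the 2 others in all its libraries. Kif21b was 4.17-fold higher in Late than in Basal (2.06 ± 0.24, adjusted p = 1.2e-05), 2.58-fold higher in Reactivated than in Basal (1.37 ± 0.24, adjusted p = 0.00074) and 1.62-fold lower in Reactivated than in Late (-0.69 ± 0.24, adjusted p = 0.0472). That last call was lost in 12 of 26 alternative settings, including 8 of the 12 that each leave out 1 library. Kif21a had 2521 ± 387 normalized counts in Basal and 3439 ± 236 in Late (SD, n = 3), a rise of 0.45 ± 0.14 on the log2 scale (adjusted p = 0.0177). Kif7, a regulator of hedgehog signalling at the tip of the cilium, was 3.15-fold higher in Late than in Early (adjusted p = 0.00195), and Kif27 was not called.

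Kinesin-14 motors walk toward the minus end. Kifc2, a transport motor of neurons, had 1983, 2009 and 3126 normalized counts in the Basal libraries, 2475, 2861 and 4011 in the Early ones, 5892, 5991 and 4842 in the Late ones and 4020.0, 4092 and 4286 in the Reactivated ones. It rose 2.35-fold from Basal to Late (1.23 ± 0.20, adjusted p = 0.00018) and 1.74-fold from Basal to Reactivated (0.80 ± 0.20, adjusted p = 0.00637). Kifc3 had 161, 130.2 and 232 normalized counts in the Basal libraries, 158, 159 and 261 in the Early ones, 485, 459.7 and 381 in the Late ones and 372, 377 and 363 in the Reactivated ones, with every library of the last 2 groups above the rest. Its rise was 2.51-fold in Late (1.33 ± 0.22, adjusted p = 0.00024) and 2.11-fold in Reactivated (1.08 ± 0.22, adjusted p = 0.00216). Kifc1, a spindle motor, and Kifc5b are near-identical copies between which the counting may split reads. Kifc5b was called higher in Late than in Basal (1.34 ± 0.37, adjusted p = 0.0077) and Kifc1 higher in Reactivated than in Basal (1.48 ± 0.48, adjusted p = 0.0254), at means of 55.9 and 44.9 normalized counts, and both calls are uncertain.

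Kif26b and Kif6 were the 2 members called between Early and Basal. Kif26b encodes an atypical kinesin without motor activity that takes part in cell adhesion and developmental signalling. It had 591, 666 and 696 normalized counts in the Basal libraries, 175, 187 and 226 in the Early ones, 245, 222 and 228 in the Late ones and 395, 212 and 163 in the Reactivated ones. The Basal libraries stood above all 9 others, and Reactivated 1 was the highest of those 9. Kif26b was 3.32-fold lower in Early (-1.73 ± 0.24, adjusted p = 0.00054), 2.81-fold lower in Late (-1.49 ± 0.24, adjusted p = 0.00018) and 2.56-fold lower in Reactivated than in Basal (-1.36 ± 0.24, adjusted p = 0.0008). All 10 dentate granule cell markers were also lower in Early than in Basal, and the part of the mix of nuclei in the fall of Kif26b was not tested. Its relative Kif26a went the other way, with 29.8, 15.7 and 46.6 normalized counts in the Basal libraries, 51.1, 44.2 and 61.8 in the Early ones, 104, 153 and 122 in the Late ones and 96.4, 93.3 and 116 in the Reactivated ones. Kif26a was 3.99-fold higher in Late than in Basal (1.99 ± 0.31, adjusted p = 0.00012) and 3.22-fold higher in Reactivated (1.69 ± 0.31, adjusted p = 0.00099).

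Kif6, a kinesin-9 gene linked to motile cilia, was low in Basal and higher in the 3 other groups. It had 23.3, 28.1 and 27.3 normalized counts in the Basal libraries, 63.7, 85.5 and 110.2 in the Early ones, 74.5, 106 and 98.0 in the Late ones and 95, 121 and 108 in the Reactivated ones. All 9 libraries outside Basal were above the Basal ones, and those 3 groups overlapped. Kif6 was 3.28-fold higher in Early (1.72 ± 0.25, adjusted p = 0.00079), 3.51-fold higher in Late (1.81 ± 0.26, adjusted p = 5.6e-05) and 4.11-fold higher in Reactivated than in Basal (2.04 ± 0.25, adjusted p = 7.8e-05). Kif9, of the same class, had 70.4 ± 13.1 normalized counts in Basal and 123 ± 28.4 in Early (SD, n = 3) without a call (0.80 ± 0.31, adjusted p = 0.172), and was called higher in Reactivated than in Basal (1.23 ± 0.31, adjusted p = 0.00648). Over all 39 members, 4 had no overlap between Early and Basal libraries, where 23.4% of all genes did. Without Basal 3, the Basal library with the highest Rn45s share, 8 members were called between Early and Basal, 7 higher and 1 lower, with 7.08% of all genes. With the replicate number as a block in Basal and Early, the calls of Kif6 and Kif26b remained, and those added were of the transport genes Klc2 (log2 fold change 0.61, adjusted p = 0.00531), Kif21b (0.58, adjusted p = 0.0199), Kif5a (0.50, adjusted p = 0.0169), Kif5c (0.38, adjusted p = 0.038) and Kifc2 (0.40, adjusted p = 0.0295), all higher in Early, and 1 further member. The calls of Kif26b against Basal in 3 groups and of Kif6 in Early and in Reactivated held in every alternative setting, 26 in all and 28 for Early.

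Kif24 set the Reactivated group apart. It encodes a kinesin-13 that acts at the mother centriole and holds back growth of the cilium. It had 279.8, 341 and 242 normalized counts in the Basal libraries, 301, 271 and 241 in the Early ones, 247, 252 and 237 in the Late ones and 100.5, 128 and 115 in the Reactivated ones. The Reactivated libraries lay below all 9 others, which overlapped among groups. Kif24 was 2.49-fold lower in Reactivated than in Basal (-1.31 ± 0.17, adjusted p = 8.8e-05), 2.34-fold lower than in Early (-1.23 ± 0.17, adjusted p = 0.00068) and 2.13-fold lower than in Late (-1.09 ± 0.17, adjusted p = 0.00029). The call against Basal held in all 26 alternative settings, that against Early was lost with the Rn45s covariate (log2 fold change -0.86) and that against Late was lost on unscaled values (-0.90). The difference between Late and Basal was not called (-0.23 ± 0.16, adjusted p = 0.26), although Kif24 was called lower in Late with libraries scaled to the same total only (-1.08) and with upper quartile scaling (-0.46).

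The upstream windows of Kif6, Kif26b and Kif24 are shown because the changes of these 3 genes held most widely across settings. Capitals mark GC boxes on either strand, of which Kif24 has 4 and the other two have 1 each, and none of the 3 windows holds the cAMP response element or the AP-1 site TGANTCA.
Kif6, chr17:49614922-49615135, plus strand: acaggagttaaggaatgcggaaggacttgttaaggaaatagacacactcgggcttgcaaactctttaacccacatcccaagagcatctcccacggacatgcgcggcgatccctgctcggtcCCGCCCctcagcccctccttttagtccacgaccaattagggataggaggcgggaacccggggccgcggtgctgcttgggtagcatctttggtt
Kif26b, chr1:178528875-178529124, plus strand: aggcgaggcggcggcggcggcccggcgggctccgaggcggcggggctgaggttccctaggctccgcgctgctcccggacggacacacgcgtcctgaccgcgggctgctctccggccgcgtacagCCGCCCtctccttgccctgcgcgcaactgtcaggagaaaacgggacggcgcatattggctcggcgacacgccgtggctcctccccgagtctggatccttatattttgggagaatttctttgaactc
Kif24, chr4:41464888-41465098, minus strand: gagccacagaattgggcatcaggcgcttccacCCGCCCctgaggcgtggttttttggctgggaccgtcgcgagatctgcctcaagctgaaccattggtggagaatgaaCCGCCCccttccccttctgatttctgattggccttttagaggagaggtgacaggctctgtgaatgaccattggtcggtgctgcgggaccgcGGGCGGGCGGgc

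Reactivated against Late had few calls among the kinesins: 2 members rose, with a background of 10.3%, and 3 fell, with a background of 12.3%. The 2 that rose were the cytokinesis genes Kif20a (1.37 ± 0.44, adjusted p = 0.0362) and Kif20b (1.73 ± 0.55, adjusted p = 0.034). Kif20a had 8.41, 6.61 and 11.2 normalized counts in the Late libraries and 35.8, 13.2 and 22.2 in the Reactivated ones. Kif20b had 4.8, 7.93 and 12.1 in Late and 46.8, 25.5 and 14.2 in Reactivated libraries, so that both rest on small counts. Those that fell were Kif24, Kif21b and Kifc5b. The number called went from 5 to 2 without Late 1, to 1 without Late 2 and to 3 without Early 2, Reactivated 1 or Reactivated 3. The share of all genes called was 22.6% with all libraries, 13.7% without Late 1 and 14% without Late 2. Without Early 2, Reactivated 1 or Reactivated 3 it was 20.6%, 24.3% and 19.6%.

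Kif2a and 4 of the 9 tested motors of cell division fell from Basal to Late, where 23.7% of all genes fell. Kif2a, a kinesin-13 that shortens microtubules at their ends and prunes axon branches, had 574, 533 and 550.4 normalized counts in the Basal libraries, 652, 617 and 459 in the Early ones, 357, 343 and 363 in the Late ones and 403, 444 and 318 in the Reactivated ones. It was 1.56-fold lower in Late than in Basal (-0.64 ± 0.16, adjusted p = 0.00412) and 1.42-fold lower in Reactivated (-0.51 ± 0.16, adjusted p = 0.0202), without overlap. Both calls were lost after correction for GC content (-0.12 in each), and the transcript of Kif2a has the lowest GC content of the 39 members, 38.6%. Kif22, a motor that binds chromosome arms, had 51.8, 73.0 and 70.3 normalized counts in the Basal libraries, 79.3, 79.3 and 49.3 in the Early ones, 24.0, 15.9 and 34.6 in the Late ones and 26.2, 25.5 and 37.3 in the Reactivated ones. It was 2.58-fold lower in Late than in Basal (-1.37 ± 0.32, adjusted p = 0.00306) and 2.18-fold lower in Reactivated (-1.13 ± 0.32, adjusted p = 0.0122).

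Kif15, which helps hold the spindle apart, fell 1.58-fold from Basal to Late (adjusted p = 0.0363) and 1.93-fold from Basal to Reactivated (adjusted p = 0.00808). Kif11, the main motor that separates spindle poles, fell 3.20-fold from Basal to Late (adjusted p = 0.0104), from 63.5, 73.0 and 59.6 normalized counts in the Basal libraries to 21.6, 13.2 and 25.2 in the Late ones. Kif20a fell 4.17-fold from Basal to Late (adjusted p = 0.00113), from a mean of 37.9 ± 10.8 to 8.74 ± 2.32 normalized counts (SD, n = 3). Of 12 tested genes of a cell division list outside the naming rule, 6 fell and 1 rose from Basal to Late. The list includes Cenpe, itself a kinesin gene. Its median log2 fold change over the tested genes was -0.78, beside -0.03 for all genes. From Basal to Reactivated 7 fell and 1 rose, with a median of -0.92 beside 0.02. Of all genes, 23.7% fell and 25.4% rose to Late, and 18.8% fell and 20.6% rose to Reactivated. Mki67, the proliferation marker, fell 5.14-fold from Basal to Late (-2.36 ± 0.35, adjusted p = 7.4e-05), and Anln, an actin-binding protein also made in oligodendrocytes, rose 1.98-fold (0.99 ± 0.23, adjusted p = 0.00281). The summed level of the 17 genes of that list in the table was 923 to 1272 normalized counts in Basal and 677 to 721 in Late.

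Within a library, the ratio of 2 counts does not depend on scaling. A set of 5 ratios was chosen after the levels had been seen. The ratio of Kif5a to Kif5b averaged 1.90 ± 0.422 in Basal and 2.68 ± 0.186 in Early libraries, then 5.36 ± 0.334 for Late and 4.39 ± 0.802 for Reactivated (SD, n = 3). That of Kif5c to Kif5b was 2.01 ± 0.423, 2.62 ± 0.225, 4.22 ± 0.225 and 4.65 ± 0.565 in the same order. Klc1 to Kif5b went from 2.59 ± 0.547 in Basal and 2.99 ± 0.591 in Early to 7.91 ± 1.37 in Late and 5.34 ± 0.510 in Reactivated. The ratio of Kif21b to Kif21a was 0.480 ± 0.128 for Basal, 0.651 ± 0.0713 for Early, 1.50 ± 0.121 for Late and 0.956 ± 0.102 for Reactivated. Kif2a to Kif5b was 0.542 ± 0.0331 in Basal and 0.366 ± 0.0286 in Late. Late did not overlap Basal in any of the 5 ratios. Since the ratios were chosen on these levels, they are a description, with no test. They were not corrected for GC content either. The transcripts of Kif5a, Kif5c and Klc1 had 53.8%, 47.5% and 55.95% G and C, beside 41.1% for Kif5b. Kif21b had 56.7%, beside 47.1% for Kif21a, and Kif2a had 38.6%. The part of GC content in these ratios was not tested.

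**Figure D3:**
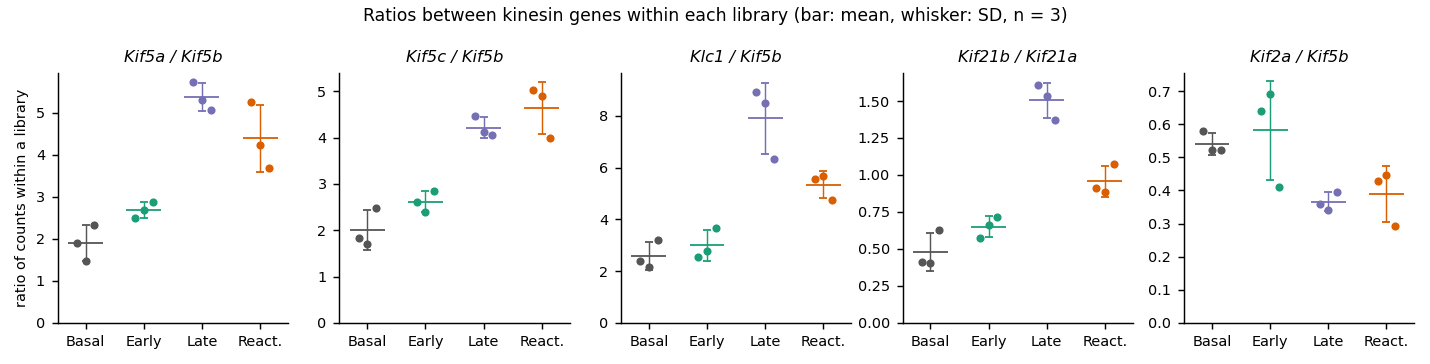
Ratio of the counts of 2 kinesin genes within each library (vertical axes, starting at 0), with the mean as a bar and the SD as whiskers for the 3 libraries of a group. In the first 4 panels all Late libraries lie above all Basal libraries, and in the last panel, Kif2a to Kif5b, they lie below.

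The calls were also counted by level, with no test of the difference. Of the 20 members at or above the members' median level, 80% rose from Basal to Late and 10% fell, while of the 4149 genes of at least that level 44.5% rose and 19.9% fell. Of the 19 members below it, 26.3% rose and 21.1% fell, with 18.5% and 25% of the 11519 other genes. The members that rose from Basal to Late also had transcripts with more G and C, a median of 54.5% against 45.6% in those that fell. Across the 39 members, Spearman's rank correlation between GC content and log2 fold change was 0.52 for Late against Basal and 0.45 for Reactivated against Basal, beside 0.28 and 0.31 across the 14840 genes with a length. These are descriptions across genes, which share libraries and are not independent replicates. After correction for GC content, which was added after seeing the data, 24 members were called between Late and Basal, 20 higher and 4 lower, with 46.9% of all genes. Reactivated against Basal gave 23 in place of 27, with 36.5% of all genes. Late against Early gave 16 in place of 24, with 37.5%, and Reactivated against Early 10 in place of 18, with 20.4%.

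**Figure D4:**
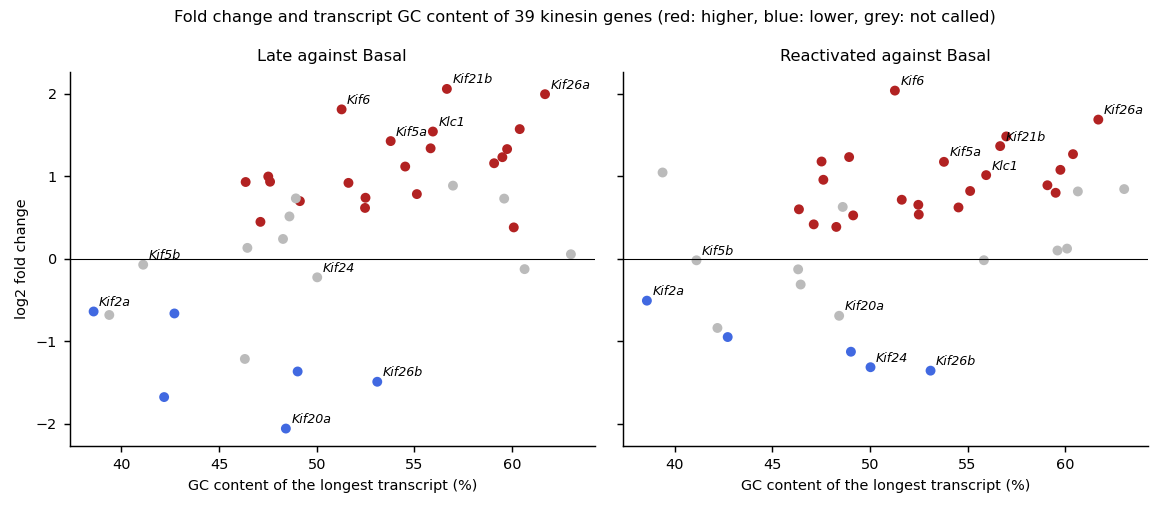
Log2 fold change (vertical axis) of the 39 tested kinesin genes against the GC content of their longest annotated transcript in percent (horizontal axis), for Late and Reactivated against Basal, coloured by call. Genes higher in Late have a median GC content of 54.5% and genes lower a median of 45.6%, with Kif26b at 53.1% among the lower ones.

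Between groups, the sum over the family and the Rn45s share of the library were both higher in Late and Reactivated than in Basal and Early. The 46 genes together had 29799.7, 28428 and 40775 normalized counts in Basal libraries 1 to 3, against 35642, 35133 and 47252 in the Early ones, 66743, 65679 and 55714 in the Late ones and 54743, 56663 and 55136 in the Reactivated ones. Basal 3 and Early 3 were the highest of their groups in this sum and, at 12.2 and 12.9%, in Rn45s share, and Late 3 was the lowest of its group in both. Within Reactivated the order was the opposite, since Reactivated 1 had the highest Rn45s share, 27.7%, and the lowest sum, and Reactivated 2 the lowest share, 18.8%, and the highest sum. As a share of all counts, kinesins made up 0.445 to 0.554% of a Basal library, 0.528 to 0.586% of an Early, 0.512 to 0.537% of a Late and 0.541 to 0.624% of a Reactivated one. On that scale Late overlapped both Basal and Early, and its mean of 0.521% was below the 0.55% of Early. With Rn45s left out of the total, the shares were 0.469 to 0.631% for Basal, 0.564 to 0.673% for Early, 0.744 to 0.806% for Late and 0.748 to 0.786% for Reactivated. Without Basal 3 and Early 3, 29 members were called between Late and Basal and 27 between Reactivated and Basal, with 52.7% and 44.8% of all genes. The median of the members minus that of all genes was 0.76 on the log2 scale for Late against Basal, 0.77 with libraries scaled to the same total only and -0.04 with the Rn45s covariate. The Rn45s share of every Late and Reactivated library was above that of every Basal and Early library, so group and Rn45s share cannot be told apart here.

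**Figure D5:**
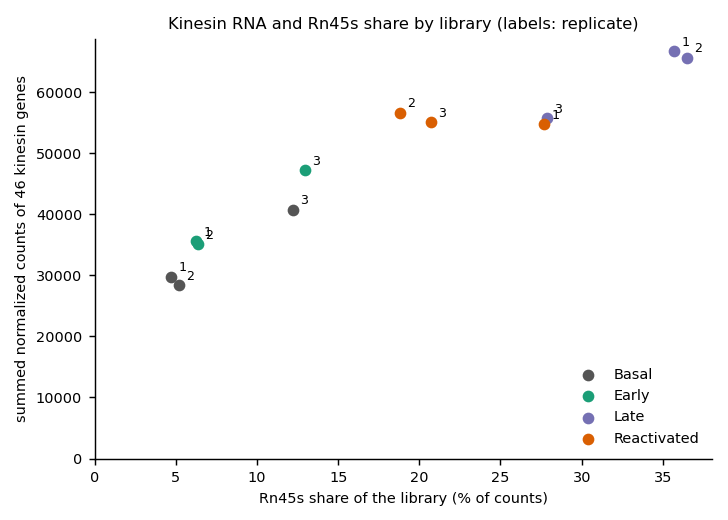
Summed normalized counts of the 46 kinesin genes (vertical axis, starting at 0) against the share of Rn45s in the counts of the library in percent (horizontal axis), 1 point per library with its replicate number. Late 1 and Late 2 lie at the upper right with 66743 and 65679 counts, and Basal 1 and Basal 2 at the lower left with 29799.7 and 28428.

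Partners of the kinesins outside the family were read from 3 further lists. Of 25 tested cargo adaptors, 13 rose and 4 fell from Basal to Late, and 11 rose and 2 fell from Basal to Reactivated, with medians of 0.58 and 0.36 on the log2 scale, where 25.4% of all genes rose and 23.7% fell to Late, 20.6% rose and 18.8% fell to Reactivated, and the medians were -0.03 and 0.02. Mapk8ip2, a scaffold that binds kinesin light chains, rose 2.19-fold from Basal to Late (1.13 ± 0.14, adjusted p = 1.6e-05), and Apba1, which links Kif17 to its receptor cargo, rose 2.12-fold (1.08 ± 0.15, adjusted p = 6.0e-05). Ppfia2, a liprin that binds Kif1a, fell 2.74-fold (-1.46 ± 0.16, adjusted p = 6.6e-06). Of 16 microtubule-associated proteins, 8 rose and 0 fell from Basal to Late and 10 rose and 1 fell from Basal to Reactivated, with medians of 0.43 and 0.62. Map7, which recruits kinesin-1 to microtubules, rose 4.72-fold from Basal to Late (2.24 ± 0.22, adjusted p = 2.6e-06), its relative Map7d1 rose 4.34-fold (2.12 ± 0.31, adjusted p = 6.6e-05) and Map7d2 rose 3.19-fold (1.67 ± 0.22, adjusted p = 3.4e-05). Map7 was 2.28-fold lower in Reactivated than in Late (-1.19 ± 0.21, adjusted p = 0.00106). The list of dynein, the motor of the opposite direction, also held its cofactor dynactin and regulators or adaptors such as Pafah1b1, Nde1 and Bicd2. Of its 23 tested genes, 8 rose and 4 fell from Basal to Late, and 10 rose and 0 fell from Basal to Reactivated. The medians were 0.04 and 0.44, and the counts of this list for Late lay near those of all genes. From Basal to Early, 0 genes of the dynein list, 2 adaptors and 0 microtubule-associated proteins were called, where 6.03% of all genes were.

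Upstream of the transcription start, 30 of the 39 tested members had a window of 250 bases in RefSeq. The counts that follow are over the full windows, exon included, whereas the 5 printed above leave annotated exon out and can hold fewer matches. The GC box GGGCGG, searched on both strands, was in 19 of these 30 windows (63.3%) and in 33.0% of 27025 windows of all genes. Those 27025 windows were not limited to genes tested here, whereas the 30 were, so the shares are of unlike sets. The cAMP response element TGACGTCA was in 3 (10%), those of Kif5c, Klc1 and Kif17, and in 1.60% of all windows. The AP-1 site TGANTCA was in 0 of 30 and in 6.85% of all, and the EGR site GCGTGGGCG in 0 of 30 and in 0.540%. At so low a share, 0 of 30 shows no contrast for the EGR site. The CCAAT box was in 15 (50%) and in 34.5% of all. The motif TTTGAA was in 6 (20%) and in 16.3% of all, and the E-box CACGTG in 1 (3.33%) and in 6.04%. The kinesin windows had a median GC content of 65.6% and 22 CpG sites, beside 52% and 6 in all windows, and a GC box is itself made of G and C. These letters describe the windows alone, and the deposited table holds no measure of binding there.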

How the data were processed

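Nuclear RNA of 12 libraries was read from 1 deposited table of whole-number counts per gene symbol and library. Per the submitters' processing notes, Bowtie2 2.0, Cufflinks 2.2, DESeq2 (no version) and the build mm9 were used. What each did, how reads were counted and whether strand was used is not given in the sources used here. In the table, the deposited counts carry a name that calls them normalized, but totals of 4838166 to 11120255 and size factors of 0.734 to 1.46 showed no scaling, so they were treated as raw counts. Per the labels' protocols, libraries came from the SMARTer Stranded Pico kit with ribosomal depletion and 15 PCR cycles, although the design text names SmartSeq2. No molecular identifiers are named.

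Genes with at least 10 counts in at least 3 of 12 libraries (15668) were fitted with edgeR 4.0.16 in R 4.3.3: TMM scaling, 4 group means, quasi-likelihood tests, two-sided p-values with Benjamini-Hochberg adjustment over all genes, threshold 0.05. Normalized counts are counts divided by effective library size relative to its geometric mean. The script was tested on simulated data. Alternatives used limma 3.58.1 and DESeq2 1.42.0, other scalings and filters, an Rn45s covariate, left-out libraries, the replicate number as a block and, added after seeing the data, a correction for GC content and a block within Basal and Early only. Deviations from the group means correlated in all 3 pairs of Basal and Early libraries of the same number (0.13 to 0.46). Basal 1 with Early 2 (0.21) and Basal 2 with Early 1 (0.15) correlated more than Basal 2 with Early 2 (0.13). Basal 3 and Early 3 had 0.46 with each other and -0.38 to -0.21 with libraries 1 and 2 of the other group. No label states a pairing, and these values do not establish 1 by number. Exon lengths, GC content and overlaps came from GENCODE on GRCm38, matched by symbol for all 39 tested members (14840 of 15668 genes, 94.7%), and promoter windows from RefSeq on GRCm38.p6, where 36 of 46 members matched. No position of the deposited build is given. Nothing ties a replicate to a culture or litter beyond the statement of 3 biological replicates, so p-values measure the spread between these pools.

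The family rule and the lists were chosen with earlier results of these data known. Named in full were the 14 tested members with the smallest p of the 4-group test among those with a mean of at least 50 normalized counts in their highest group, and the best known neuronal members (Kif5a, Kif5b, Kif5c, Klc1, Klc2, Kif1a, Kif1b, Kif3a, Kif3c, Kif17, Kif21b and Kif2a), 19 in all. Other members may be named where called in a comparison, up to 4 genes of each other list by p, and Arc as the check of the labels.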

Additional observations from a re-analysis of the deposited data

How the results depend on the processing

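Of 114 results on named kinesin genes, 64 were called, and 6 of these kept their call in all settings, 26 in number or 28 for Early against Basal: Kif26b against Basal in 3 groups, Kif6 in Early and Reactivated and Kif24 in Reactivated against Basal. The count of members called moved by over 1.5 times as follows. On values as deposited without scaling, 11 members were called for Late against Basal, 9 for Reactivated against Basal and 7 for Late against Early. There were 3 for Reactivated against Early and 0 for Reactivated against Late (edgeR's quasi-likelihood test, 5 with DESeq2 and 3 with limma-voom on scaled counts). The 4-group test called 15. The share of all genes called without scaling was 28.5% for Late against Basal and 14.4% for Reactivated against Basal. It was 29.8% for Late against Early and 10.1% for Reactivated against Early. For Reactivated against Late, 1746 of all 15668 genes were called. With the Rn45s covariate the counts were 5 for Early against Basal, 1, 3, 0, 0 and 2 for the other comparisons in the same order and 6 in the 4-group test. The share of all genes called with it was 9.47% for Early against Basal and 7.6%, 5.55%, 5.28%, 0.83% and 22.9% for the others. With libraries scaled to the same total only the counts were 17 for Reactivated against Basal, 9 for Reactivated against Early and 9 for Reactivated against Late. The shares of all genes were 45.1%, 31.9% and 31.8%. For Late against Early the split was 4 members higher and 12 lower, and 1208 of all 15668 genes were higher and 8607 lower. Reactivated against Late gave 2 with at least 50 counts in at least 3 libraries, 3 with limma-voom and 9 without Basal 3 and Early 3. The shares of all genes there were 26.6%, 20.8% and 28.5%. Early against Basal gave 6 without Basal 3 and Early 3, 8 with the replicate block within Basal and Early only and 8 with the GC correction added to that block. The shares of all genes there were 6.18%, 8.55% and 8.89%. Reactivated against Early gave 10 with the GC correction and 11 with the GC correction and the replicate block, with 20.4% and 20% of all genes. The cause of these moves was not tested.

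Leaving out 1 library in turn gave 2 to 8 members for Early against Basal, 23 to 29 for Late against Basal, 18 to 27 for Reactivated against Basal, 18 to 26 for Late against Early, 4 to 21 for Reactivated against Early, 1 to 7 for Reactivated against Late and 26 to 32 in the 4-group test. The share of all genes called was 3.12 to 7.84%, 39.1 to 53.3% and 26.9 to 42.6% in the comparisons with Basal, in that order. It was 30.6 to 46.4% for Late against Early, 11 to 29.5% for Reactivated against Early and 13.7 to 24.6% for Reactivated against Late. Without Early 1, 5 of 39 members and 11.5% of all genes were called for Reactivated against Early. Without Early 2, 4 of 38 members and 11% of all genes were.

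Of the 64 called results, 14 changed sign in at least 1 setting, and of the 50 not called, 36 did. Where the result was called with or without the change, the values that turned were as follows. With libraries scaled to the same total only, log2 fold changes were, for Late against Early, -0.63 for Kif6, -0.12 for Kif5c, -0.27 for Kif1a and -0.19 for Kif17, for Late against Basal -0.0502 for Kif1a, -0.60 for Kif1b and -0.46 for Kif17, and for Reactivated against Basal -0.094 for Kif1b. With the Rn45s covariate they were, for Late against Early, -0.069 for Klc2, -0.15 for Kif5c, -0.14 for Kifc2, -0.13 for Kif3c and -0.33 for Kif1a, for Late against Basal -0.37 for Kif3c, -0.11 for Kif1a and -0.095 for Kif17, for Reactivated against Basal -0.0032 for Kifc2 and -0.23 for Kif3c, and for Reactivated against Early -0.047 for Klc2 and -0.0503 for Kif1a. With the GC correction, Kif17 had -0.29 for Late against Basal, -0.45 for Reactivated against Basal and -0.017 for Late against Early, and with the replicate block added -0.29, -0.44 and -0.016.

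Outside the Basal and Early pairs, correlations between the deviations of libraries of the same number ran from -0.20 to 0.15. Between Late and Reactivated they were 0.06 to 0.15, above the -0.11 to 0.03 of libraries of unlike number. No label says whether the number pairs any groups. With the replicate block over all 4 groups 2, 28, 27, 24, 18 and 5 members were called in the 6 comparisons, of which 2, 27, 27, 24, 17 and 5 were also called without it. The share of all genes called with that block was 5.92%, 48.9%, 39%, 42.2%, 25.7% and 22.1% in the same order. For 7 members with at most 22 counts per library no difference was detectable at this depth.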

Other observations

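Several genes that work with kinesins but are not named as such were also called. Of the genes below, Kifap3 is among the adaptors counted above and Cenpe belongs to the cell division list. Kifap3, the adaptor that joins Kif3a and Kif3b to their cargo, averaged 642 ± 28.0 normalized counts for Basal, 803 ± 110.2 for Early, 411 ± 36.1 for Late and 530.5 ± 59.3 for Reactivated (SD, n = 3). It fell 1.56-fold from Basal to Late (log2 fold change -0.64 ± 0.14 SE, adjusted p = 0.00195) and 1.95-fold from Early to Late (-0.97 ± 0.14, adjusted p = 0.00011), whereas Kif3a and Kif3b rose from Basal to Late. The gene listed as 2510003E04Rik, an older symbol of the KIF1-binding protein, had 249.9 ± 5.84 normalized counts in Basal and 407 ± 30.5 in Reactivated, a rise of 1.63-fold (0.70 ± 0.14, adjusted p = 0.00172). Cenpe, a kinesin of the centromere whose symbol lies outside the naming rule, had 39.1 ± 14.5 in Basal and 35.5 ± 11.4 in Late and was not called in any comparison.

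Among the adaptors, Disc1, a scaffold linked to Kif5 transport, fell 2.60-fold from Basal to Early (-1.38 ± 0.29, adjusted p = 0.0098), and Ppfia2 fell 1.90-fold (-0.93 ± 0.16, adjusted p = 0.0023). Arl8b, which couples lysosomes to kinesin, fell 2.22-fold from Basal to Late (-1.15 ± 0.26, adjusted p = 0.00209) and was 1.87-fold higher in Reactivated than in Late (0.90 ± 0.26, adjusted p = 0.0218). In the dynein list Dynll2, a light chain, rose 2.19-fold from Basal to Late (1.13 ± 0.18, adjusted p = 0.00017) and 2.91-fold from Basal to Reactivated (1.54 ± 0.18, adjusted p = 5.6e-05). Dynlrb1, another light chain, was 2.32-fold higher in Reactivated than in Late (1.21 ± 0.21, adjusted p = 0.0007).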
